A study of Mus musculus with 15 samples.

Results

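The interleukin-1 (IL-1) family and inflammasome genes described here are Il1a, Il1b, Il1rn, Il1r1, Il1rap, Il18, Il18bp, Nlrp3, Pycard and Casp1. They were taken by symbol from the deposited table of raw gene counts, 10 of its 37991 gene identifiers, and all 10 had enough counts to be tested. The table holds 15 whole-liver libraries from female C57BL/6 mice, each 1 mouse, in 3 groups of 5. Young WT mice were 90 days old and old WT mice were 600 days old. Old S6K1 KO mice (old KO) were also 600 days old and were germline, whole-body knockouts of Rps6kb1, the gene of ribosomal S6 kinase 1. The mice came from crosses of heterozygous parents, the labels name no treatment other than age, and no young KO mice were sequenced, so genotypes can be compared at 600 days only. Comparisons share libraries: old WT stands in the comparison of age (old WT against young WT) and in that of genotype (old KO against old WT).

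Total counts per library were 21801754 to 38065359. Rps6kb1 was between 33.3 and 41.4 CPM in young WT livers and between 34.6 and 45.3 CPM in old WT livers, against 15.2 to 20.8 CPM in old KO livers, so the genotype labels held in every library although reads still fell on the gene in KO livers. Each gene count sums reads over the whole gene and does not show which exons they came from. CPM are counts per 1000000 counts of the library after TMM scaling, an adjustment for differences in RNA composition.

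IL-1 alpha and IL-1 beta are ligands of the receptor Il1r1, which signals together with its accessory protein Il1rap. The receptor antagonist, encoded by Il1rn, occupies Il1r1 without signalling. IL-18 is a related ligand, and Il18bp encodes a secreted protein that binds it and blocks it. IL-1 beta and IL-18 are made as inactive precursors. The sensor Nlrp3 assembles with the adaptor Pycard (ASC) and the protease Casp1 into the inflammasome, in which active caspase-1 cleaves both precursors. Messenger RNA levels therefore report on the supply of precursors and components and not on cleavage or secretion. In liver, Kupffer cells, the resident macrophages, are known as a source of IL-1 and of inflammasome components, and hepatocytes as responders that release acute phase proteins.

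Of the 10 genes 3 passed the test in at least 1 comparison (Nlrp3, Il1r1 and Pycard). Of all genes tested, 18.8% passed with age, 0.533% with genotype and 23.3% between old KO and young WT livers. The share of all genes passing in at least 1 comparison was not counted. The promoters of Nlrp3, Il1r1 and Pycard are shown, with that of Il1b, a ligand whose precursor caspase-1 cleaves. The sequences are from RefSeq promoter entries (table build GRCm38.p6) and each had 1 exact match in NCBIM37 (mm9), whose coordinates are given. They are the 250 bases before the start of the gene, 5′ to 3′ on the strand of the gene. Where RefSeq gives a gene several starts, the most upstream is used for the counts over the 10 genes. Capitals mark matches to 6 motifs searched on both strands. The window of Nlrp3 is chr11:59354821-59355070 (plus strand), Il1b at chr2:129196876-129197125 (minus), Il1r1 at chr1:40281675-40281924 (plus) and Pycard at chr7:135137382-135137631 (minus).
Nlrp3: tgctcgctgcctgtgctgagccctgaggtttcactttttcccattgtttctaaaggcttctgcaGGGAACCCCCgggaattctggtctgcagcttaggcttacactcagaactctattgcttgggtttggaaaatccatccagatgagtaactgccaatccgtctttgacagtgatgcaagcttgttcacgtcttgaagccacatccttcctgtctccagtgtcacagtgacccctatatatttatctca
Il1b: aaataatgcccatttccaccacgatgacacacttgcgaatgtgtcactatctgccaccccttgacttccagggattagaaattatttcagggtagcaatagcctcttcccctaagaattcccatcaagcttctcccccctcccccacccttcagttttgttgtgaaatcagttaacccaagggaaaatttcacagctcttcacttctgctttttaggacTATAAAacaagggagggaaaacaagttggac
Il1r1: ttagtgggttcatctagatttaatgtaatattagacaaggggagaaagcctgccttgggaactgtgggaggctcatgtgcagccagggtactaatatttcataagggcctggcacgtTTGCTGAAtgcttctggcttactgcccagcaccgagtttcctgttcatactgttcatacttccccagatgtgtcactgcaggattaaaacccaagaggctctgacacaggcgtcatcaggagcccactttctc
Pycard: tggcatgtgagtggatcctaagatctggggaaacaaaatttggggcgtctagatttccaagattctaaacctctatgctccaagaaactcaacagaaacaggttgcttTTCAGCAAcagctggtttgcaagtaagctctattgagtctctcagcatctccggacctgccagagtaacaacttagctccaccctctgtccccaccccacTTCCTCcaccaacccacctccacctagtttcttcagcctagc

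The Nlrp3 promoter held the NF-kB letters (GGGA, any 4 bases, then CC), found in 17.6% of 32851 promoters of this length and in 3 of the 10 genes (Il1rap, Il1rn and Nlrp3). The Il1b promoter held TATAAA, the letters of a common core promoter element, found in 12.4% of promoters and in 3 of the 10 (Il18, Il1a and Il1b). Il1r1 and Pycard held TTGCNNAA (C/EBP), found in 9.56% of promoters and in 3 of the 10 (also Il18bp). Pycard held GAGGAA (PU.1) as well, found in 23.3% of promoters and in 3 of the 10 (also Casp1 and Il1a). The AP-1 letters (TGA, any base, then TCA) were in 2 of the 10 (Il1a and Il1rn) against 6.75% of promoters, and the interferon-stimulated response element (GAAA, any 2 bases, then GAAA) in 0 of the 10 against 2.98%. None of the matches in the 4 printed promoters overlapped another. Further RefSeq starts exist for Nlrp3 (1), Il1r1 (1) and Il1rn (2), and the second Nlrp3 window, chr11:59355938-59356187, held the PU.1 letters at 3 places, whereas the further windows of Il1r1 and Il1rn held none of the 6 motifs. These are matches of letters and no binding was measured.

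With age, Pycard rose 1.78-fold and Il1r1 fell 2.35-fold in WT livers, and the other 8 genes did not pass the test. That is 1 of 10 genes higher and 1 lower at an adjusted p under 0.05, where 9.92% of the 14258 genes tested were higher and 8.91% lower (18.8% in all), so the share among these genes was near that background. The fitted log2 fold change was above 0 for 8 of the 10, with a median of 0.30 beside 0.01 over all genes tested.

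In old livers, Nlrp3 was 2.40-fold lower in KO than in WT mice, and no other gene of the 10 passed. The 1 of 10 called lower stands beside 0.421% of all genes called lower in this comparison (0.533% in either direction, 0.112% higher). The fitted change was below 0 for 7 of the 10 genes, with a median of -0.59 beside 0.00 over all genes (8e-04). At an unadjusted p under 0.05, 6 of the 10 were lower (Il1a, Il1b, Il1rn, Il18bp, Nlrp3 and Casp1) and 1 was higher (Il1rap), where 6.80% of all genes were lower and 4.85% higher.

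Against young WT livers, old KO livers had more Pycard and less Il1r1 and Nlrp3 mRNA, 1 of the 10 genes higher and 2 lower beside 12.0% and 11.3% of all genes (23.3% in all). Both age and genotype differ in that comparison.

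**Figure D1:**
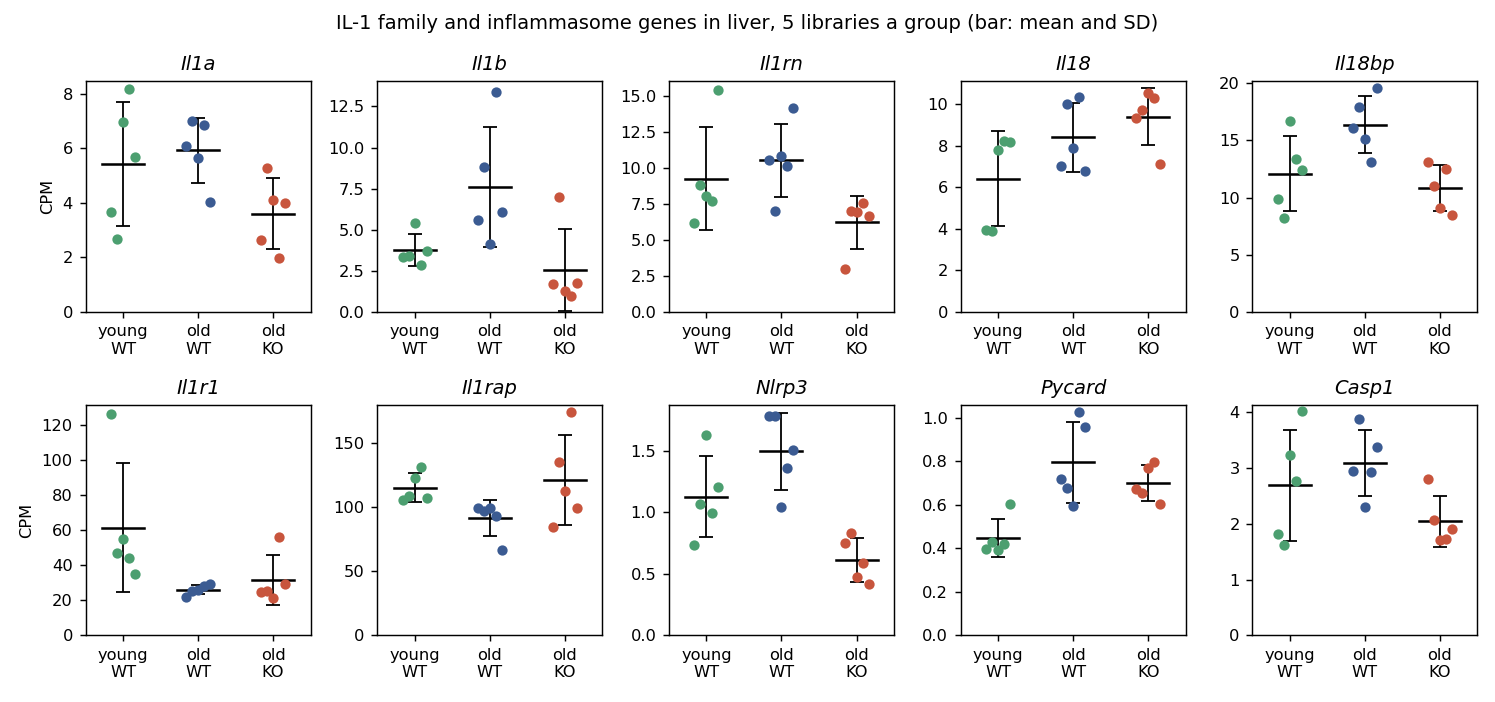
Expression of the 10 genes in CPM, 1 point a library, with young WT, old WT and old KO livers side by side. Horizontal lines are means and whiskers SD (n = 5 a group), and every panel has its own axis from 0. Nlrp3 lies below every old WT library in all 5 old KO libraries, and 1 old KO library stands above the other 4 for Il1b.

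**Figure D2:**
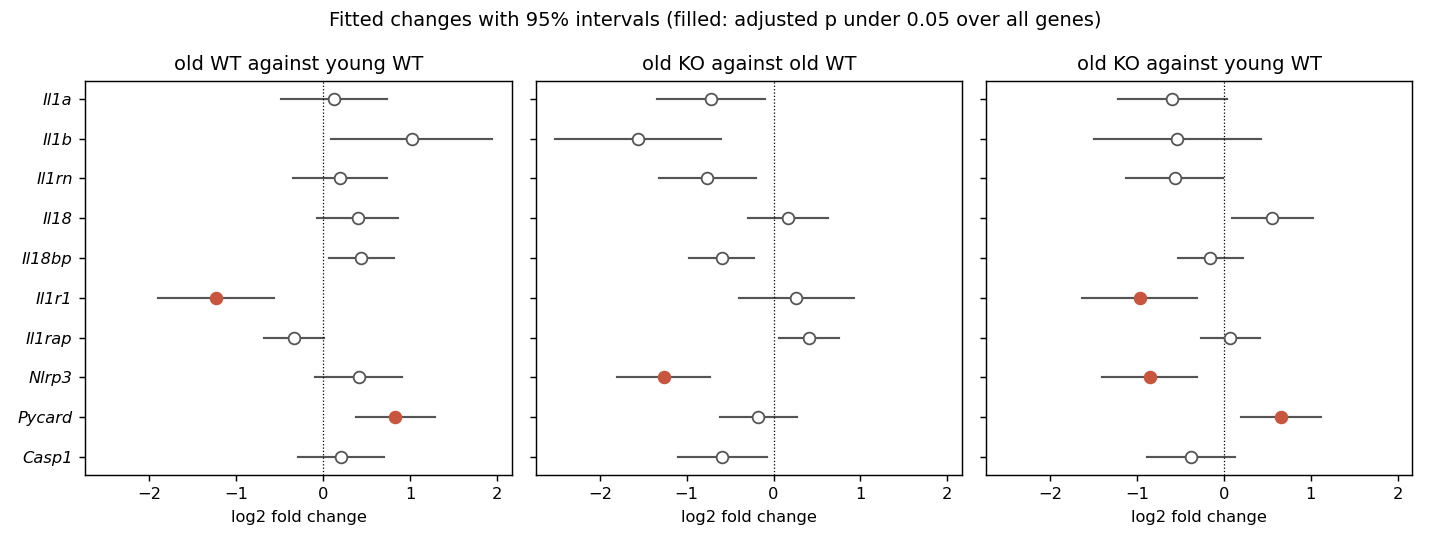
Fitted log2 fold changes of the 10 genes with 95% intervals in the 3 comparisons, from 1 edgeR fit to all 15 libraries. Filled points have an adjusted p under 0.05 over all genes tested: Il1r1 and Pycard with age, Nlrp3 with genotype, and all 3 between old KO and young WT.

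Il1b (ENSMUSG00000027398, NCBIM37 chr2:129190306-129196875, minus strand) had 3.32, 3.39, 5.41, 2.86 and 3.71 CPM in the 5 young WT livers and 5.59, 8.82, 4.12, 13.4 and 6.10 CPM in the 5 old WT livers. In old KO livers it had 1.69, 7.01, 1.29, 0.964 and 1.76 CPM. In old WT 4 of the 5 libraries lay above every young WT library, and 4 of the 5 old KO libraries lay below every library of both other groups, while the old KO 2 library stood among the old WT values. The mean was 3.74 ± 0.983 CPM in young WT, 7.60 ± 3.65 in old WT and 2.54 ± 2.52 in old KO livers (SD, n = 5 each). The rise with age was 1.02 on the log2 scale (SE 0.437), and its adjusted p was 0.113. Old KO livers differed from old WT livers by -1.56 (SE 0.452, adjusted p = 0.155), and from young WT livers by -0.54 (adjusted p = 0.420). These calls turned on the old KO 2 library. Without it the difference between old KO and old WT was -2.42 with an adjusted p of 0.00493, that between old KO and young WT was -1.39 with an adjusted p of 0.00941, and the adjusted p of age, whose fit shares the estimate of spread, was 0.0218. With the 10 WT libraries fitted alone the adjusted p of age was 0.0371. Il1b shares exonic bases with Gm14047 on the opposite strand, which had 65 counts over the 15 libraries.

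Il1a (ENSMUSG00000027399, chr2:129125346-129135708, minus strand), the other agonist, lies on the same chromosome as Il1b. It had 2.69 to 8.17 CPM in young WT livers (median 5.69), 4.04 to 7.01 in old WT (median 6.09) and 1.97 to 5.27 in old KO (median 3.99). The ranges of all 3 groups overlapped, and all 5 old KO libraries lay below the old WT median. The fitted changes were 0.13 with age (adjusted p = 0.792) and -0.72 with genotype (SE 0.296, adjusted p = 0.342). The antisense neighbour Gm14023, which overlaps its exons, had 207 counts over the 15 libraries.

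Il1rn (ENSMUSG00000026981, chr2:24192373-24207014, plus strand), the receptor antagonist, had 6.19 to 15.4 CPM in young WT livers, 7.01 to 14.1 in old WT livers and 2.96 to 7.55 in old KO livers. In old KO 3 of the 5 libraries lay below every old WT library, and all 5 below the old WT median. The mean was 10.5 ± 2.53 CPM in old WT and 6.21 ± 1.85 in old KO livers (SD, n = 5 each), a fitted change of -0.76 (SE 0.263, adjusted p = 0.242). With age the change was 0.20 (adjusted p = 0.631).

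Antagonist and agonist were also set against each other within each library, as the log2 ratio of Il1rn to Il1b in CPM (0.1 CPM added to both). The ratio averaged 1.24 ± 0.558 in young WT, 0.55 ± 0.852 in old WT and 1.56 ± 1.16 in old KO livers (SD, n = 5 each). The groups overlapped, with old WT libraries between -0.40 and 1.37 and old KO libraries between 0.00 and 2.84. In an exact 2-sided permutation test the difference between old KO and old WT, 1.02, had p = 0.159 (0.286 after adjustment over 2 ratios and 3 comparisons), and that between old WT and young WT, -0.70, had p = 0.190 (adjusted 0.286). Gene length enters a ratio of 2 genes, so only differences between groups are read from it.

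Il18 (ENSMUSG00000039217, chr9:50383378-50389942, plus strand) had 3.95, 3.88, 7.79, 8.26 and 8.19 CPM in young WT livers. It had 7.03, 10.03, 7.90, 10.3 and 6.76 CPM in old WT livers, and 9.36, 9.73, 10.54, 10.3 and 7.10 CPM in old KO livers. Young WT livers fell into 2 libraries near 4 CPM and 3 near 8 CPM, and the old groups overlapped over most of their ranges. The fitted change was 0.40 with age (95% interval -0.07 to 0.86, adjusted p = 0.219), 0.16 with genotype (-0.30 to 0.62, adjusted p = 0.837) and 0.56 between old KO and young WT (0.10 to 1.02, adjusted p = 0.0748). The last passed with limma voom (adjusted p = 0.0415) and without the young WT 6 library (0.0460).

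Il18bp (ENSMUSG00000070427, chr7:109163593-109166669, minus strand), which encodes the IL-18 binding protein, had 9.85, 8.18, 16.7, 13.3 and 12.4 CPM in young WT livers. It had 16.1, 18.0, 15.1, 13.1 and 19.6 CPM in old WT livers and 13.1, 11.04, 9.08, 12.5 and 8.45 CPM in old KO livers. Every old KO library lay below every old WT library, the nearest by less than 0.1 CPM, and old KO values lay within the young WT range. The genotype change was -0.60 (SE 0.177, adjusted p = 0.162), and 2 of the 10 genes (Il18bp and Nlrp3) had old KO ranges entirely below old WT, beside 2.08% of all genes. With age the change was 0.44 (SE 0.176, adjusted p = 0.0914), which passed without the young WT 3 library (0.59, adjusted p = 0.0281).

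Within libraries, the log2 ratio of Il18bp to Il18 was 1.30, 1.06, 1.09, 0.69 and 0.59 in young WT and 1.19, 0.83, 0.92, 0.34 and 1.52 in old WT livers. In old KO livers it was 0.48, 0.18, -0.21, 0.27 and 0.25. All 5 old KO values lay below all 5 young WT values, and 1 old WT value, 0.34 in old WT 7, lay within the old KO range. The mean was 0.94 ± 0.295 in young WT, 0.96 ± 0.438 in old WT and 0.19 ± 0.252 in old KO livers (SD, n = 5 each). Il18bp mRNA was lower relative to Il18 mRNA in old KO livers, by 0.77 against old WT (exact 2-sided permutation p = 0.0159, adjusted 0.0476). Against young WT the ratio was lower by 0.75 (exact p = 0.00794, the smallest that 5 against 5 allow, adjusted 0.0476). The adjustment covers only 2 ratios and 3 comparisons, chosen with earlier results of these data known. With genotype neither gene passed over all genes tested (edgeR adjusted p = 0.162 for Il18bp and 0.837 for Il18). How often other pairs of genes differ this far was not examined. Age alone moved the ratio by 0.02 (exact p = 0.960). The adjusted p of 0.0476 was lost when most single libraries were left out. Without old WT 1, 4, 5 or 10 or old KO 2, 4, 5 or 6 the adjusted p against old WT was 0.0952, and without old KO 2, 4, 5 or 6 so was that against young WT, where the smallest exact p of 4 against 5 is 0.0159. The difference kept its sign, at -0.92 to -0.63 against old WT and -0.84 to -0.65 against young WT.

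**Figure D3:**
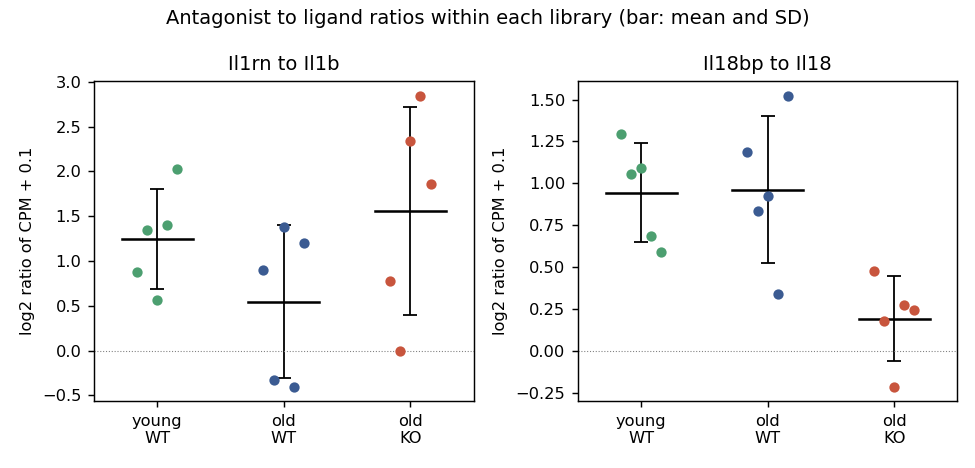
Log2 ratios of inhibitor to ligand in each library, Il1rn to Il1b and Il18bp to Il18, 1 point a library with the mean and SD of each group (n = 5). For Il18bp to Il18, all old KO points lie below all young WT points, and for Il1rn to Il1b the groups overlap.

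Il1r1 (ENSMUSG00000026072, chr1:40281925-40373043, plus strand), the signalling receptor of both IL-1 ligands, had 126, 47.0, 54.9, 44.1 and 34.7 CPM in young WT livers. It had 22.1, 25.2, 25.8, 28.1 and 29.4 CPM in old WT livers and 24.6, 25.2, 21.5, 56.3 and 29.3 CPM in old KO livers. Every old WT library lay below every young WT library, and the young WT 1 and old KO 5 libraries stood above the rest of their groups. The mean was 61.4 ± 36.9 CPM in young WT, 26.1 ± 2.81 in old WT and 31.4 ± 14.2 in old KO livers (SD, n = 5 each). Il1r1 fell by 1.23 on the log2 scale with age (SE 0.314, 95% interval -1.90 to -0.57, adjusted p = 0.0135). The fall held its call without any single library and in all 10 alternatives, with a lowest size of -0.79 (adjusted p = 0.0344) without young WT 1. Old KO did not differ detectably from old WT (0.26, 95% interval -0.40 to 0.93, adjusted p = 0.816). Old KO livers were lower than young WT livers by 0.97 (adjusted p = 0.0345), a call that was lost without young WT 1 (-0.53, adjusted p = 0.121), without old KO 1, 2, 4 or 6 (0.0601 to 0.0854) and with the 10 libraries fitted alone (0.0727).

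Il1rap (ENSMUSG00000022514, chr16:26581790-26730203, plus strand), the accessory chain, had 105 to 131 CPM in young WT livers, 66.4 to 99.5 in old WT livers and 84.6 to 174 in old KO livers. Each old WT library lay below each young WT library, as for Il1r1, so 2 of the 10 genes had old WT ranges entirely below young WT, beside 5.67% of all genes. The change with age was -0.34 (SE 0.163, adjusted p = 0.160) and that with genotype was 0.41 (SE 0.163, adjusted p = 0.317), and neither passed. RP24-345H5.2 overlaps its exons on the opposite strand and had 8143 counts over the 15 libraries, so part of the Il1rap count is uncertain.

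Of 9 liver endothelial markers, Stab2 (-0.56) and Lyve1 (-0.94) were called lower with age, beside 8.91% of all genes tested. Of the 9 fitted changes 7 were below 0 and 2 above. The summed level of the list was 205 to 393 CPM in young WT livers, 171 to 299 in old WT livers and 219 to 248 in old KO livers, with no marker at 0. Of 9 hepatocyte markers, Apoa1 and Cps1 fell with age, and 8 of 9 fitted changes were below 0. Among 7 stellate cell markers 1 was called lower with age, and 3 of 7 fitted changes were below 0. The part of these cells in the fall of Il1r1 was not tested, and in whole liver fewer cells of a type cannot be told apart from less RNA per cell.

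Nlrp3 (ENSMUSG00000032691, chr11:59355070-59380458, plus strand), the sensor, had 0.737, 1.07, 1.63, 0.994 and 1.21 CPM in young WT livers. It had 1.78, 1.78, 1.04, 1.36 and 1.51 CPM in old WT livers and 0.749, 0.835, 0.471, 0.587 and 0.418 CPM in old KO livers. All 5 old KO libraries lay below all 5 old WT libraries, and 3 of the 5 lay below all young WT libraries. The levels are low, 28 to 50 reads in young WT livers, 35 to 57 in old WT livers and 9 to 23 in old KO livers. The mean was 1.49 ± 0.310 CPM in old WT and 0.612 ± 0.178 in old KO livers (SD, n = 5 each), a fitted change of -1.26 (SE 0.254, 95% interval -1.803 to -0.726, edgeR adjusted p = 0.0384). Old KO livers were also lower than young WT livers (-0.85, SE 0.258, adjusted p = 0.0256), while the change with age in WT was 0.41 (95% interval -0.09 to 0.91, adjusted p = 0.240).

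The direction of the genotype difference in Nlrp3 was the same with every library left out, between -1.41 and -1.16, but its call stood close to the threshold. The adjusted p was 0.0552 to 0.121 without young WT 4, old WT 1, 4, 7 or 10, or old KO 2, 4, 5 or 6, and 0.0632 with limma voom, whereas DESeq2 gave 0.00190. The difference from young WT lost its call without young WT 3 (0.0719) and without old KO 4, 5 or 6 (0.0542 to 0.0661).

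Pycard (ENSMUSG00000030793, chr7:135135617-135137381, minus strand), the adaptor, had 0.395, 0.427, 0.391, 0.422 and 0.604 CPM in young WT livers. It had 0.718, 0.676, 0.596, 1.03 and 0.956 CPM in old WT livers and 0.674, 0.654, 0.771, 0.796 and 0.603 CPM in old KO livers. Young WT 6 was the 1 young library that reached the level of the old groups, and the 2 old groups overlapped. Pycard was called on 12 to 15 reads a library in young WT livers, 19 to 28 in old WT livers and 13 to 19 in old KO livers. Means were 0.448 ± 0.0886, 0.794 ± 0.186 and 0.700 ± 0.0814 CPM (SD, n = 5 each). The rise with age was 0.83 (SE 0.213, 95% interval 0.38 to 1.28, adjusted p = 0.0142) and kept its call without any single library. It kept its call in 8 of 9 alternatives and lost it with replicate number as a block (0.54, edgeR adjusted p = 0.328). A filter on a mean of at least 1 CPM removed the gene from testing. No genotype difference was detectable (-0.18, 95% interval -0.62 to 0.27, adjusted p = 0.822). Old KO livers were higher than young WT livers by 0.66 (adjusted p = 0.0401), which was lost without young WT 1, 2, 3 or 4 or old KO 1, 2, 4 or 5 (0.0553 to 0.0908) and in 5 of 9 alternatives, among them DESeq2 (0.0804), total counts only (0.0516), no filter on low counts (0.109) and thinned counts (0.139).

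Casp1 (ENSMUSG00000025888, chr9:5298517-5307265, plus strand), the protease, had 1.62 to 4.01 CPM in young WT livers (median 2.77), 2.30 to 3.88 in old WT (median 2.94) and 1.71 to 2.81 in old KO (median 1.90). In old KO 4 of the 5 libraries lay below every old WT library, and old KO 1 at 2.81 CPM did not. The genotype change was -0.59 (SE 0.239, adjusted p = 0.333) and the age change 0.21 (adjusted p = 0.568). Of the 3 inflammasome components Nlrp3 passed with genotype, Pycard with age, and Casp1 in neither. Whether the 3 genes differ from one another in their response was not tested.

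Markers of Kupffer cells and macrophages moved in the same direction as Nlrp3. Between old KO and old WT livers, 8 of 13 were lower (Clec4f, Vsig4, Cd5l, Folr2, C1qa, C1qb, C1qc and Cd68), beside 0.421% of all genes tested. All 13 had a fitted change below 0, with a median of -1.18, close to the -1.26 of Nlrp3. Clec4f, a lectin of Kupffer cells, fell by 1.26 (adjusted p = 0.0292), and Cd5l, a secreted macrophage protein, fell by 1.47 (adjusted p = 0.0247). The 13 markers summed to 237 to 499 CPM in young WT livers, 283 to 681 in old WT livers and 163 to 244 in old KO livers, every old KO library below every old WT library, and none was at 0. With age, 0 of 13 rose and 1 (Cd163) fell in the edgeR test, beside 9.92% and 8.91% of all genes tested. In either direction 6 of 13 had an unadjusted p under 0.05 with age, and the share of all genes at that cut was not counted. Of the 13 fitted changes with age 11 were above 0 with a median of 0.41, beside the 0.41 of Nlrp3. Old WT 4 had the highest marker sum (681 CPM) together with 1.78 CPM of Nlrp3 and the highest old WT Casp1, and old WT 5 had the lowest sum of its group (283 CPM) together with its lowest Nlrp3, Il1b and Casp1. Il1b departed from this order in old WT 7, which had 13.4 CPM of Il1b at a sum of 415 CPM, and in old KO 2, which had 7.01 CPM at 233 CPM. Nlrp3 and Casp1 did not follow the sum in every library either. Young WT 2 had 1.07 CPM of Nlrp3 at a sum of 237 CPM, above young WT 4 with 0.994 CPM at 435 CPM. Young WT 6 had 4.01 CPM of Casp1 at a sum of 486 CPM, above young WT 3 with 3.23 CPM at 499 CPM. Among markers of other cells, 0 of 11 tested T and NK cell markers passed with genotype in edgeR, 3 at an unadjusted p under 0.05, and 11 of 11 fitted changes were below 0 (median -0.68), with sums of 4 to 8.41 CPM in young WT livers, 6.51 to 14.9 in old WT livers and 4.11 to 10.8 in old KO livers. Red blood cell markers likewise had 0 of 5 called with genotype and 4 at an unadjusted p under 0.05. All 5 fitted changes were above 0 (median 1.09), with sums of 47.3 to 110, 79.7 to 164 and 107 to 395 CPM. At that unadjusted cut 6.80% of all genes were lower and 4.85% higher with genotype. No marker of either list was at 0 in a whole group. The part of these cells in the Nlrp3 difference was not tested.

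**Figure D4:**
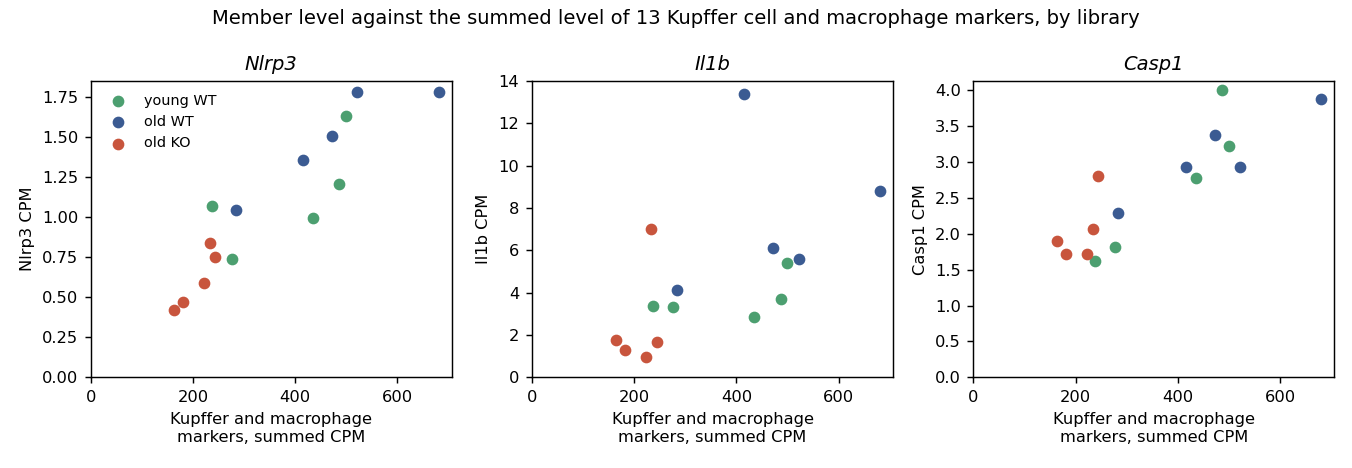
Level of Nlrp3, Il1b and Casp1 (CPM, vertical axes) against the summed CPM of 13 Kupffer cell and macrophage markers in each of 15 libraries, coloured by group. Old KO libraries lie at 163 to 244 CPM of markers, below the old WT libraries at 283 to 681, and the libraries high in Il1b for their marker sum are old WT 7 and old KO 2.

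Monocyte and recruited macrophage markers rose with age in 8 of 9 genes, among them Trem2 and Itgax, beside 9.92% of all genes tested. With genotype 0 of 9 passed in edgeR, and 8 of 9 fitted changes were below 0 with a median of -0.49. At an unadjusted p under 0.05 there were 4 of 9, where 6.80% of all genes were lower and 4.85% higher. Their sum was 28.8 to 60.6 CPM in young WT livers, 67.6 to 128 in old WT livers and 37.7 to 75.4 in old KO livers, with none at 0, and the part of these cells in the rise of Pycard was not tested. Neutrophil markers, 5 of 11 of which could be tested, had 0 called in any comparison and summed to 5.34 to 9.49, 5.58 to 19.98 and 4.04 to 14.2 CPM, with Ly6g at 0 in all young WT and all old KO libraries.

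Levels were compared between genes per length, as CPM divided by the kilobases of exon (RPKM). In young WT livers Il1r1 (12.1 ± 7.30 RPKM), Il1rap (10.1 ± 0.999), Il18 (9.13 ± 3.26) and Il18bp (8.64 ± 2.35) formed an upper group whose neighbours in order overlapped. Il1rn (2.88 ± 1.12), Il1a (2.75 ± 1.15), Il1b (1.96 ± 0.516) and Casp1 (1.796 ± 0.664) followed, all below Il18bp, with overlapping neighbours. Pycard (0.319 ± 0.0630) and Nlrp3 (0.278 ± 0.0810) were last, and every library of Pycard lay below every library of Casp1.

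The same 8 genes exceeded a mean of 1 RPKM in each group, and Pycard and Nlrp3 stayed below it. For Il1b in old KO livers that mean rested on the old KO 2 library at 3.68 RPKM. The other old KO libraries lay below 1 RPKM for Il1b, down to 0.506. In old WT livers Il18 (12.0 ± 2.39 RPKM) and Il18bp (11.7 ± 1.8) led, Il1rap (8.01 ± 1.23) lay below Il18bp without overlap, and Il1r1 (5.17 ± 0.556) lay below Il1rap without overlap. Il1b (3.99 ± 1.91), Il1rn, Il1a and Casp1 (2.06 ± 0.393) came next with neighbours overlapping. In old KO livers Il18 (13.4 ± 1.95) and Il1rap (10.7 ± 3.08) led and Il1b (1.33 ± 1.32) came after Casp1 (1.36 ± 0.302), with overlap. Nlrp3 was last at 0.151 ± 0.0439 RPKM, without overlap with Pycard at 0.498 ± 0.0580. These levels rest on the gene models used for length. With the longest transcript in place of all exons Il1rap led in all 3 groups (25.4, 20.1 and 26.8 RPKM), and the Il18 model is a single transcript of 702 bases whose start lies 20573 bases downstream of the RefSeq start.

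Across the 15 libraries, log2 CPM of Il1b and Nlrp3 correlated at r = 0.80, and at 0.51 after the group means were removed. Il18bp and Casp1 gave 0.78 and 0.71, and Nlrp3 and Casp1 gave 0.76 and 0.63. Il1b and its antagonist Il1rn gave 0.43 over all libraries and -0.03 within groups. Among 12116 other genes with a mean of at least 1 CPM, those most like Nlrp3 were Slc11a1 (r = 0.93), Lgmn (0.93) and Sfpi1 (0.92), and those most like Casp1 were Fyb (0.95), Emr4 (0.94) and Inpp5d (0.94). Avl9 (0.87), Spic (0.85) and Rgs1 (0.85) were most like Il1b. Acat3 (0.94), Iyd (0.93) and Rnf13 (0.93) were most like Il18, each over 15 libraries. These correlations are descriptions over libraries that share depth, group and cell content.

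The rest of the pathway was read from lists of genes by role. Of 6 other ligands, Il33 and Il1f9 (IL-36 gamma) could be tested and neither passed in any comparison, Il1f6, Il1f8 and Il1f10 had 0 counts in every library, and Il36rn was not matched. Of 8 other receptors, 3 could be tested, and 1 was called higher with age, beside 9.92% of all genes tested. Sigirr, a receptor that dampens IL-1 and Toll-like receptor signalling, rose with age from 13.3 ± 1.38 to 17.7 ± 1.36 CPM (log2 fold change 0.41, adjusted p = 0.00425) without overlap, opposite to Il1r1. It was also higher in old KO than in young WT livers (0.36, adjusted p = 0.00618). The accessory chain of the IL-18 receptor, Il18rap, was lower there (-1.16, adjusted p = 0.0183). These are 1 of 3 tested receptors higher and 1 lower, beside 12.0% and 11.3% of all genes tested. Il18rap differed from old WT livers by -1.19 with an adjusted p of 0.128.

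Of 22 other inflammasome and pyroptosis genes, 20 were tested. With age 4 rose, namely Nlrp6 (0.60), a sensor, Naip2 (0.56), a sensor of bacterial secretion system proteins, Casp12 (0.97) and Gsdmd (0.47), the pore-forming target of caspase-1, and Nlrp12 fell (-1.30, adjusted p = 0.00548). That is 4 of 20 higher and 1 lower, beside 9.92% and 8.91% of all genes tested. Gsdmd rose from 18.3 ± 1.49 to 25.4 ± 3.22 CPM (adjusted p = 0.00348) without overlap. With genotype 0 of 20 passed in edgeR, and 16 of 20 fitted changes were below 0 with a median of -0.34. At an unadjusted p under 0.05 there were 4 of 20, where 6.80% of all genes were lower and 4.85% higher. The abundant Nlrp6 and Txnip differed by 0.19 and -0.19 (adjusted p = 0.762 and 0.888). Between old KO and young WT livers Nlrp6, Casp12, Gsdmd (0.60) and Ninj1 were higher, and Nlrp12 and Mefv lower. These are 4 of 20 higher and 2 lower, beside 12.0% and 11.3% of all genes tested.

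Of 20 IL-1 receptor signalling genes, the kinases Irak4 (0.31) and Ikbkb (0.32) rose with age and 0 fell, with a list median of 0.06. That is 2 of 20 higher, near the 9.92% of all genes tested that were higher with age. With genotype 0 of 20 passed in edgeR. At an unadjusted p under 0.05 there were 2 of 20, where 6.80% of all genes were lower and 4.85% higher. The abundant Chuk and Tab2 differed by -0.10 and -0.11 with genotype. Old KO livers had more Irak4 and Ikbkb and less Irak2, Tab1 (-1.11) and Tab3 mRNA than young WT livers. These are 2 of 20 higher and 3 lower, beside 12.0% and 11.3% of all genes tested.

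Of 10 acute phase genes known to respond to IL-1, 6 rose with age, beside 9.92% of all genes tested. Saa1 (1.89), Saa2 (2.45) and Saa3 (1.52) encode serum amyloid A proteins, Orm2 (1.96) an orosomucoid, Lcn2 (1.71) lipocalin-2 and Steap4 (1.26) a metalloreductase. Steap4 rose from 51.6 ± 13.5 to 123 ± 26.6 CPM (adjusted p = 0.00266) without overlap, while Saa1 in old WT livers, at 70.3 ± 80.4 CPM, had a spread larger than its mean. With genotype 0 of 10 passed in edgeR, and all 10 fitted changes were below 0 with a median of -0.53. At an unadjusted p under 0.05 there were 3 of 10, where 6.80% of all genes were lower and 4.85% higher. Any part of IL-1 in the changes of these genes was not tested. The abundant C3 and Hp differed by -0.04 and -0.27. Steap4 stayed higher in old KO than in young WT livers (1.23, adjusted p = 0.00205), 1 of 10 beside 12.0% of all genes tested.

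**Figure D5:**
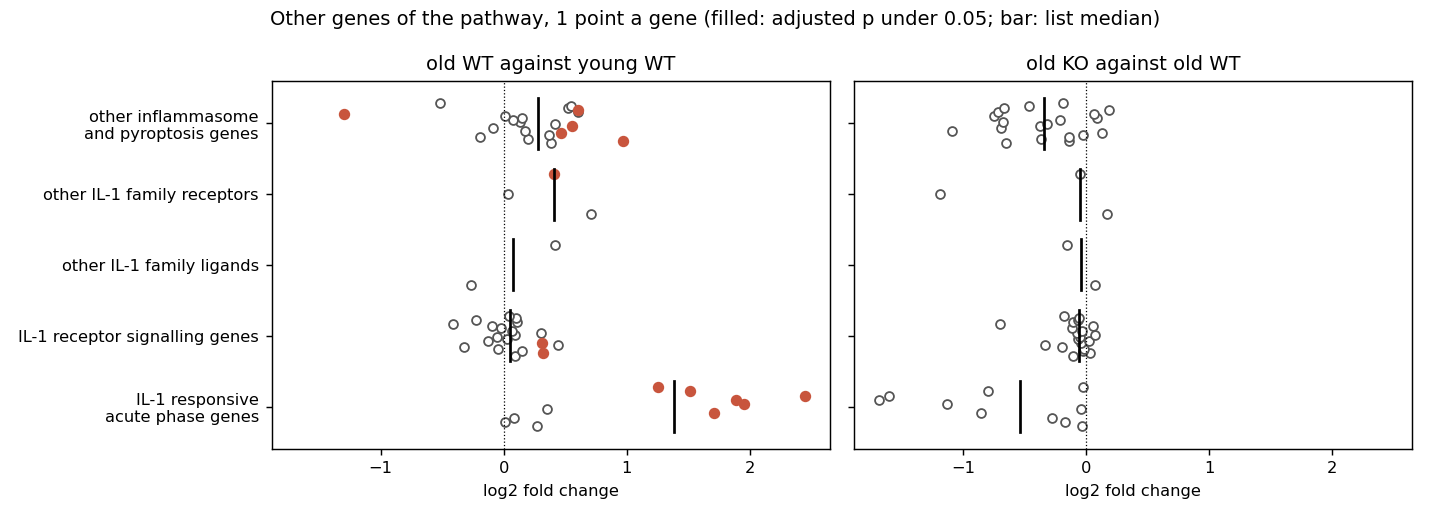
Fitted log2 fold changes of the tested genes in 5 lists of related genes, 1 point a gene, for age (left) and genotype at 600 days (right). Filled points have an adjusted p under 0.05 and bars are list medians: 6 of 10 acute phase genes rose with age (9.92% of all genes tested did), and 0 genes of any list passed with genotype.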

How the data were processed

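Liver RNA of 15 mice was sequenced (5 young WT, 5 old WT, 5 old KO). The authors made strand-specific mRNA libraries, aligned single-end reads to the mm9 genome with TopHat (TopHat2 2.0.11 in the submitters' processing notes) and tallied them over genes with HTSeq. Raw counts were deposited, 1 column a mouse, neither normalized nor pooled. The annotation and the strand setting of the counting are not given in the sources used here, so counts of overlapping and antisense genes are uncertain.

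Counts of all genes were scaled by TMM, filtered with filterByExpr and fitted with edgeR 4.0.16 (glmQLFit, glmQLFTest, R 4.3.3) in 1 model of 15 libraries with group as the only factor. P-values were adjusted by Benjamini-Hochberg over 14258 genes, with a threshold of 0.05. The common biological coefficient of variation was 0.189. The pipeline was tested on simulated data. Log2 CPM used a prior count of 2, and lengths and coordinates came from GENCODE M1 on NCBIM37. Ratios were compared by exact 2-sided permutation (252 assignments). Alternatives were DESeq2 1.42.0, limma 3.58.1 (voom), other scalings and filters, thinned counts, 10-library fits, a replicate block and leaving out each library.

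The genes, lists and tests were chosen with earlier results of these data known. Genes named beyond the 10 were list and marker genes that passed the threshold (not all of these are named), the 2 most abundant of a list where none passed, and the 3 genes most correlated with Il1b, Nlrp3, Casp1 and Il18. Of 183 list entries, 182 matched a gene. Replicates were separate mice, and all pairs differed beyond sampling noise.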

Additional observations from a re-analysis of the deposited data

Results flagged for a closer look

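Each gene and ratio was examined in each group for a library that stood apart, by the gap to its nearest neighbour over the range of the group (Dixon's test, critical value 0.71 for 5 libraries). Of 36 groups examined 7 had such a library, where chance gives about 1 in 20 groups. Il1b was 7.01 CPM in old KO 2, against 0.964 to 1.76 CPM in the other old KO libraries. Il1rn was high in young WT 6 (15.4 CPM) and low in old KO 1 (2.96 CPM). Il1r1 was high in young WT 1 (126 CPM) and in old KO 5 (56.3 CPM). Il1rap was low in old WT 10 (66.4 CPM), and Pycard was high in young WT 6 (0.604 CPM).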

How the results depend on the processing

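At these depths Nlrp3 and Pycard rest on 9 to 57 reads a library, which limits the precision of their fold changes, and p-values cover the spread between 5 mice a group. The number of the 10 genes called with age was 2, or 1 where a mean of at least 1 CPM was required, which removes Pycard, and 2 to 3 with single libraries left out. With genotype it was 1, but 0 with limma voom, and 0 to 1 with libraries left out. Between old KO and young WT it was 3, and 0 to 4 with libraries left out, 4 with limma voom and 2 with DESeq2, total counts, no filter, a mean of at least 1 CPM, thinned counts or the 10 libraries alone. Leaving out single libraries turned the sign of changes near 0: Il1a with age ranged from -0.0465 (without young WT 2) to 0.313, Il1r1 with genotype from -0.0633 (without old KO 5) to 0.373, and Il1rap between old KO and young WT from -0.0895 (without old KO 5) to 0.181. The Il18bp to Il18 ratio moved between -0.12 and 0.17 with age, -0.92 and -0.63 with genotype and -0.84 and -0.65 between old KO and young WT. The Il1rn to Il1b ratio moved between -0.0006 (without old KO 5) and 0.711 in the last comparison. Of 747 fold changes of single genes under the alternatives, 698 kept their direction and their side of the threshold, 37 lost their call, 7 gained one and 5 turned in sign. The cause was not tested.

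The labels do not say that replicate numbers pair the mice. Deviations of libraries with the same number correlated at -0.15 to 0.08 over 9 pairs, which cannot settle whether the numbers mark anything shared. With the replicate block the calls were 1 with age (Il1r1), 0 with genotype and 0 between old KO and young WT, and the sign turned for Pycard with genotype (0.0777) and Il1rap between old KO and young WT (-0.0143).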
